A study of Mus musculus with 24 samples.

Results

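The T cell receptor (TCR) alpha chain repertoire of mouse spleen was taken from 8 TCR-seq libraries of a 24-sample series. Entries were kept when both the V and the J segment were named TRA and the CDR3 translated in frame without a stop, and entries with the same V, J and CDR3 nucleotide sequence were joined into 1 clonotype. This left 123121 TRA clonotypes with 356658 reads, of 322603 entries in these libraries. A further 161412 clonotypes of the same libraries were of the beta chain (TRB). Per the labels, all samples were splenocytes of BALB/c mice, and CT-26, a colon carcinoma line of that strain, was injected into the right side of animals 8 weeks old. Of the 8 libraries, 4 were titled CT-26 and 4 were titled control. The treatment field goes against these titles in all 8 cases: it gives injected CT-26 cells for the libraries titled control and a healthy control state for those titled CT-26. Either field makes the same split, so titles are used as plain names here, and no difference is read as tumour against healthy. Nothing in the labels says that the spleens came from separate animals, so p-values measure the spread between these libraries.

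An alpha chain gene is made in the thymus by joining 1 of many TRAV segments to 1 of many TRAJ segments, with bases trimmed and added at the joint. The CDR3 encoded across this joint touches the antigenic peptide. Rearrangement of the alpha locus can be repeated on 1 chromosome, each round joining a V farther from the J cluster to a J farther from the V array, so the first rounds use V and J segments that lie close to each other. Most T cells carry chains found in few others, whereas invariant natural killer T (NKT) cells and mucosal-associated invariant T (MAIT) cells share nearly fixed alpha chains that see lipids on CD1d and vitamin B2 metabolites on MR1.

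The titled CT-26 libraries held 10495, 4226, 4707 and 5673 TRA clonotypes, against 23936, 21015, 31181 and 21888 in the titled control libraries. Depth did not overlap between the sets, with 16656 to 45267 TRA reads in the titled CT-26 set and 54273 to 74707 in the titled control set. Clonotypes of 1 read made up 69.0% to 75.0% of the titled CT-26 clonotypes and 60.9% to 63.2% of the titled control ones. The ratio of TRA to TRB reads was 1.08 to 1.49 in the titled CT-26 set and 0.487 to 0.596 in the titled control set. One pair of libraries stood apart. Titled CT-26 library 4 and titled control library 3 shared 1345 TRA clonotypes, which was 23.7% of the clonotypes and 48.4% of the reads of the titled CT-26 library, and 4.31% and 7.75% of those of the titled control library. The other 15 pairs across the sets shared 106 to 361 clonotypes, or 2.25% to 3.86% of the titled CT-26 clonotypes. The same pair shared 1862 TRB clonotypes, against 24 to 111 in the other 15 pairs. For V segments, V subgroups and reads of the invariant NKT type, values with both of them left out are given as well. The closing sections give the numbers of J segments, pairs and residues called without them, and the single values that changed direction. All other values include both libraries.

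The sequences of this paragraph are shown because they belong to the invariant types, whose residues are nearly the same in every animal. They run from the codon of the conserved cysteine to that of the closing phenylalanine or tryptophan, 5′ to 3′, and capitals mark bases that matched neither the V nor the J end. The invariant NKT type was defined as TRAV11 or its D copy joined to TRAJ18 (GRCm39 chr14:54438234-54438299) with 15 residues, and the MAIT type as TRAV1 (chr14:52665385-52666333) joined to TRAJ33 (chr14:54422815-54422871) with 12 residues.
Invariant NKT type, 323 reads: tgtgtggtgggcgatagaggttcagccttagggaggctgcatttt
Invariant NKT type, 235 reads: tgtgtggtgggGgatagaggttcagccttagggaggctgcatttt
Invariant NKT type, 150 reads: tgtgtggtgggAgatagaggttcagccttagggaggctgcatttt
Invariant NKT type, 126 reads: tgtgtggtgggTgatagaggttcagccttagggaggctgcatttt
MAIT type, 37 reads: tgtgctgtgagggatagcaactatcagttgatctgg
The first sequence has 13 bases that matched TRAV11 and 32 that matched TRAJ18, with 0 between them. The TRAV11 end was drawn from 59 clonotypes outside this type, fewer than the 100 asked of a segment for the joint counts below. The other 3 of the invariant NKT type have 1 base between the ends and encode the same residues as the first. Over all libraries this type had 1054 reads in 133 nucleotide sequences and 82 residue sequences. The residues encoded by the sequences shown took 81.6% of those reads and were written by 16 nucleotide sequences.

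The J segments also showed bases that differ from a reference sequence. The J part of the CDR3s was compared with GENCODE vM21 transcripts of the reference strain C57BL/6 for 43 TRAJ segments, and 36 were identical in all bases compared. Inner differences were found in 5 segments, shown here because every library carried them. Positions count back from the last base of the CDR3, with the reference base first, and capitals mark the differing bases.
TRAJ31 reference: ggaataGcaataacagaatcttcttt
TRAJ31 libraries: ggaataAcaataacagaatcttcttt
TRAJ32 reference: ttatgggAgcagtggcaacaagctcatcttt
TRAJ32 libraries: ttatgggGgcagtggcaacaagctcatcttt
TRAJ34 reference: tcttccaataccAacaaagtcgtcttt
TRAJ34 libraries: tcttccaataccGacaaagtcgtcttt
TRAJ37 reference: taacaggcaatacCGgaaaactcatcttt
TRAJ37 libraries: taacaggcaatacTAgaaaactcatcttt
TRAJ45 reference: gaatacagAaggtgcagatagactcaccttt
TRAJ45 libraries: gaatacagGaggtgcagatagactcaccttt
The substitutions were G20A in TRAJ31, A24G in TRAJ32, A15G in TRAJ34, C16T and G15A in TRAJ37 and A23G in TRAJ45. Shares were taken over clonotypes that match the library sequence on both sides of such a position. In each library 95.2% to 100% of these had the library base. C16T and G15A in TRAJ37 are neighbours, so each share there leaves out clonotypes with the reference base at the other position. These shares therefore cannot count clonotypes that carry both reference bases of TRAJ37. No germline sequence of BALB/c was compared, so whether these bases are those of that strain was not tested.

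All located segments lay on chromosome 14. The 96 of 99 detected TRAV segments that the gene table locates spanned chr14:52665385-54114209, and the 43 TRAJ segments spanned chr14:54394737-54455358, both on the plus strand of GRCm39. Use was uneven along this order. The 10 most used TRAV segments held 48.8% of the titled CT-26 clonotypes and 46.5% of the titled control ones, and the 10 most used TRAJ segments held 38.2% in the titled CT-26 set and 37.4% in the titled control set. TRAV12-3 and TRAV3-3 were the most used V segments of the titled CT-26 set, and TRAV12-2 and TRAV12-3 those of the titled control set. The V segment farthest from the J cluster, TRAV1, had 0.560% ± 0.240 of titled CT-26 clonotypes and 0.373% ± 0.046 of titled control clonotypes (SD, n = 4 each, as for all such values). The nearest one, TRAV21/DV12 (chr14:54113441-54114209), had 0.419% ± 0.095 in the titled CT-26 set and 0.640% ± 0.127 in the titled control set. Segments with the D and N suffix are near-identical copies of part of the array, so their reads can be assigned to one another. The D copies took 9.49% of titled CT-26 clonotypes and 10.1% of titled control clonotypes, and the N copies 9.40% of titled CT-26 and 10.9% of titled control clonotypes.

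**Figure D1:**
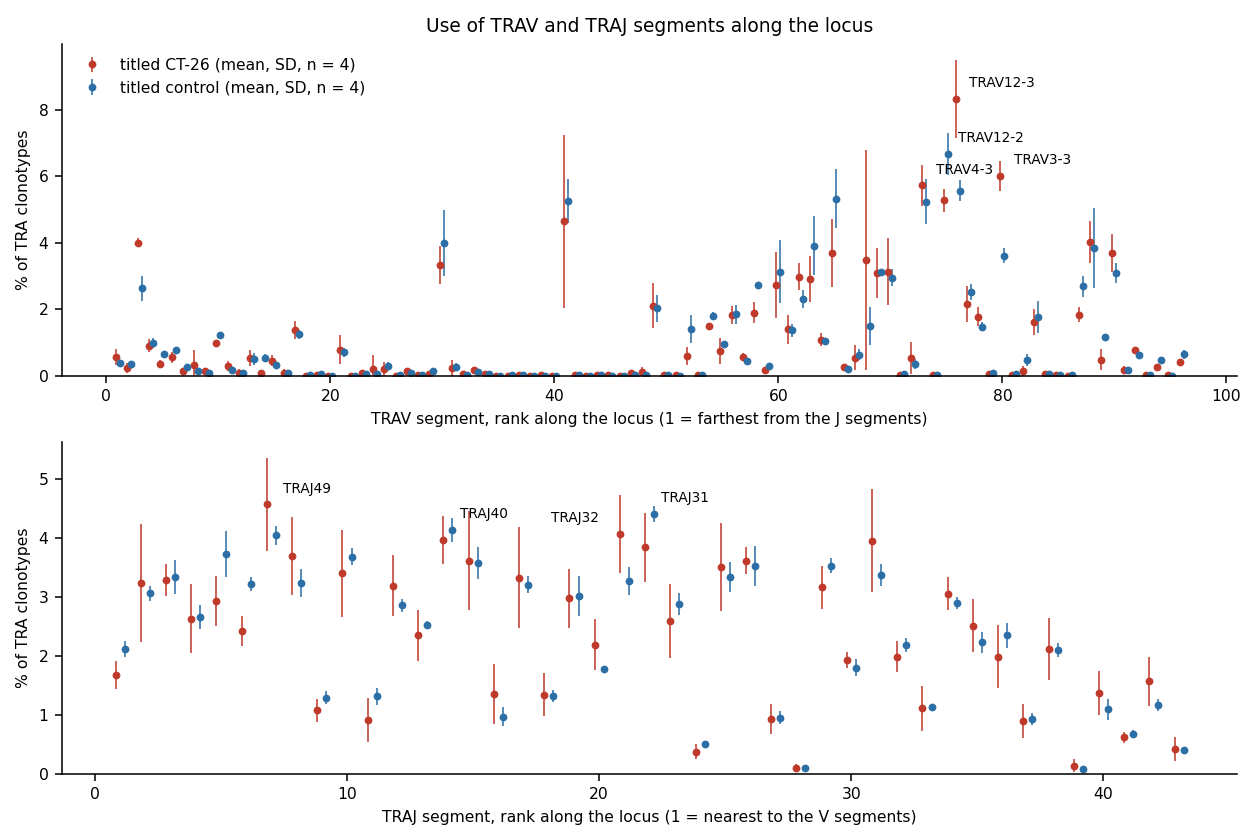
Share of TRA clonotypes (y axis, percent) of each TRAV segment (top) and TRAJ segment (bottom) in order along the locus (x axis, rank), as the mean and SD of the 4 titled CT-26 and the 4 titled control libraries. TRAV12-3 averaged 8.32% in the titled CT-26 set against 5.57% in the titled control set, and no TRAJ segment passed 5% in either mean.

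Which V segments differed between the sets was tested on numbers of clonotypes with edgeR's quasi-likelihood test, for the 64 TRAV segments averaging 10 or more clonotypes a library. TRAV3-3, TRAV12-3 and TRAV3-1 took larger shares of the titled CT-26 repertoires, and TRAV8-2, TRAV6D-6 and TRAV7-3 took smaller ones. These 6 were 9.38% of the segments tested, with 4.69% in each direction. No overlap of the sets was seen for 16 of the 64, or 25%, and 18 had an unadjusted p under 0.05, or 28.1%. TRAV segments encode the first and second CDR loops, which mainly contact the MHC molecule.

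TRAV3-3 (chr14:53903386-53903963) had 5.91%, 5.66%, 6.65% and 5.80% of clonotypes in the titled CT-26 libraries, against 3.49%, 3.58%, 3.43% and 3.93% in the titled control libraries. Every titled CT-26 library lay above every titled control library. The log2 fold change was 0.73 (SE 0.10, adjusted p = 0.00246 by edgeR), and by reads the mean shares were 8.80% in the titled CT-26 set and 3.73% in the titled control set. TRAV12-3 (chr14:53859114-53859702) had 8.13%, 7.22%, 7.95% and 9.98% in the titled CT-26 libraries, against 5.66%, 5.81%, 5.12% and 5.68% in the titled control libraries. Its log2 fold change was 0.58 (SE 0.11, adjusted p = 0.0149 by edgeR), and titled CT-26 library 4 was the highest. TRAV3-1 (chr14:52818122-52818670), which lies near the far end of the array, had 3.94%, 3.88%, 4.19% and 4.0% in the titled CT-26 libraries, against 2.43%, 2.58%, 2.32% and 3.18% in the titled control libraries. The sets did not overlap, and the log2 fold change was 0.61 (SE 0.13, adjusted p = 0.0256 by edgeR).

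Of the segments with smaller shares, TRAV8-2 (chr14:53975832-53976295) had 1.85%, 1.89%, 2.06% and 1.53% in the titled CT-26 libraries, against 2.46%, 2.52%, 3.15% and 2.64% in the titled control libraries. The log2 fold change was -0.56 (SE 0.14, adjusted p = 0.0447 by edgeR). TRAV7-3 (chr14:53680706-53681296) had 2.21%, 1.68%, 2.12% and 1.59% in the titled CT-26 libraries, against 2.67%, 2.63%, 2.88% and 2.7% in the titled control libraries, a log2 fold change of -0.51 (SE 0.14, adjusted p = 0.0495 by edgeR). For neither segment did the sets overlap. TRAV6D-6 (chr14:53059379-53059816), a D copy, had 0.210%, 0.0710%, 0 and 0.0353% in the titled CT-26 libraries, against 0.447%, 0.428%, 0.638% and 0.621% in the titled control libraries. Titled CT-26 library 3 had 0 of 4707 clonotypes, which allows a share of up to 0.0637%. The fitted log2 fold change was -2.54 (SE 0.66, adjusted p = 0.0495 by edgeR).

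The calls did not all survive the loss of libraries. With titled CT-26 library 4 and titled control library 3 left out, TRAV3-3 (log2 fold change 0.73, adjusted p = 0.00912 by edgeR) and TRAV12-3 (0.44, adjusted p = 0.0129) passed, TRAV3-1 had an adjusted p of 0.0786, and TRAV8-2, TRAV6D-6 and TRAV7-3 had 0.185. With 1 library left out, TRAV3-3 and TRAV12-3 passed in all 8 cases. Without titled CT-26 library 1 or library 3 all 6 segments passed, among 8 and 7 calls. Without titled control library 4 the 3 higher segments passed and 0 lower ones. Without titled CT-26 library 2 or 4, or titled control library 1, 2 or 3, TRAV3-3 and TRAV12-3 were the 2 calls made.

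**Figure D2:**
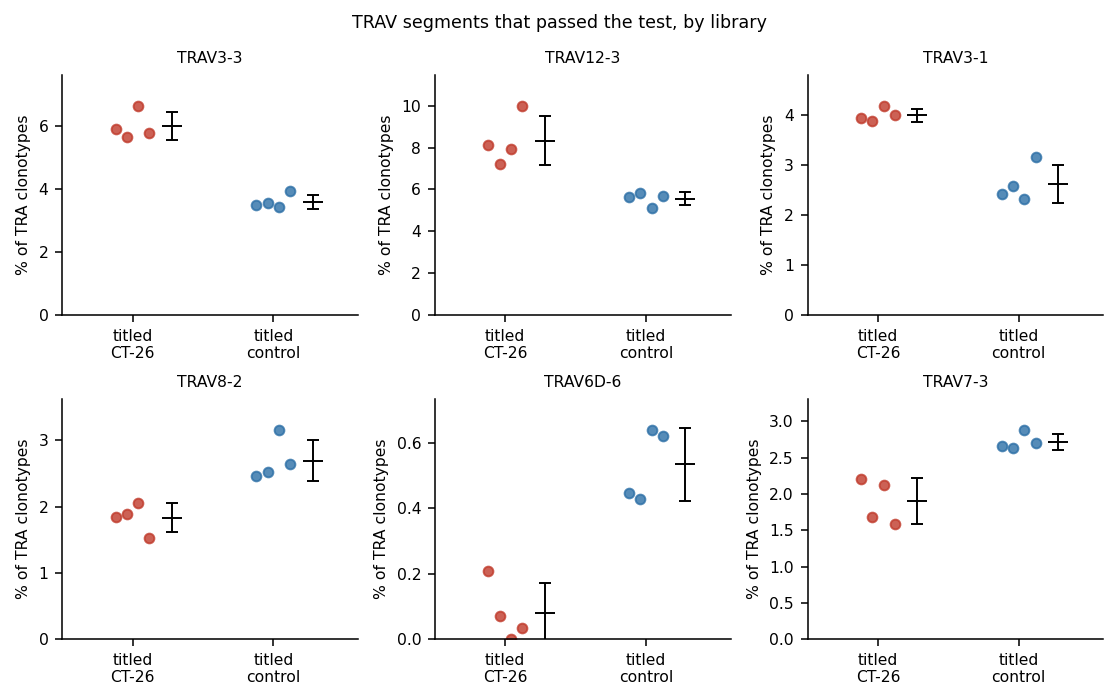
Share of TRA clonotypes (y axis, percent) in each library for the 6 TRAV segments that passed the test, with the titled CT-26 libraries left and the titled control libraries right, and the mean and SD of each set beside the points. In all 6 panels the sets do not overlap, and for TRAV6D-6 titled CT-26 library 3 lies at 0.

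Joined into subgroups, so that near-identical copies fall together, 6 of 19 V subgroups passed edgeR's test, or 31.6%, with 10.5% higher and 21.1% lower in the titled CT-26 set. TRAV3 had 9.98%, 9.63%, 11.2% and 9.92% of clonotypes in the titled CT-26 libraries, against 6.17%, 6.40%, 5.88% and 7.21% in the titled control libraries, with a log2 fold change of 0.67 (adjusted p = 3.79e-05 by edgeR). The subgroups TRAV1, TRAV21 and TRAV19 hold 1 detected segment each, so they join no copies. TRAV1 was higher as a subgroup (log2 fold change 0.67, adjusted p = 0.0347 by edgeR), but its sets overlapped, and the same clonotypes did not pass among the segments (adjusted p = 0.261 by edgeR). TRAV6 was lower, with 8.32% ± 0.72 in the titled CT-26 set and 11.7% ± 1.8 in the titled control set. TRAV8 was lower with 3.87% in the titled CT-26 and 5.60% in the titled control set. TRAV21 had 0.419% in the titled CT-26 and 0.640% in the titled control set, and passed as a subgroup (adjusted p = 0.0347 by edgeR) but not as a segment (0.165). TRAV19 had 0.263% in the titled CT-26 and 0.459% in the titled control set, and likewise passed as a subgroup (adjusted p = 0.0353 by edgeR) but not as a segment (0.0787). TRAV12, the subgroup with most clonotypes in both sets, had 22.7% ± 2.6 in the titled CT-26 set and 19.8% ± 1.8 in the titled control set, and did not pass (adjusted p = 0.163 by edgeR). With the pair of libraries left out, TRAV3 alone of these 6 passed, at an adjusted p of 0.0130 by edgeR.

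Within TRAV12, titled CT-26 library 4 differed from the rest. TRAV12-1 had 8.32% of its clonotypes, against 0.923% to 2.43% in the other titled CT-26 libraries and 0.994% to 2.27% in the titled control libraries. TRAV12N-2 had 0.776% there, against 5.42% to 6.31% in the other titled CT-26 libraries and 4.5% to 6.0% in the titled control libraries. The largest clonotype of that library used TRAV12-1, whereas those of the other 3 titled CT-26 libraries used TRAV12N-2. Between the sets, TRAV12-1 had an adjusted p of 0.231 and TRAV12N-2 of 0.858 by edgeR. Whether CDR3s of that library were assigned to TRAV12-1 in place of TRAV12N-2 was not tested.

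Of the 43 TRAJ segments tested with edgeR, 0 had an adjusted p under 0.05 (0%) and 7 had an unadjusted p under 0.05 (16.3%). DESeq2 called 0, with 8 at an unadjusted p under 0.05. For 3 segments the sets did not overlap, or 6.98%. TRAJ50 had 2.42% ± 0.25 of titled CT-26 clonotypes and 3.22% ± 0.12 of titled control clonotypes, with a log2 fold change of -0.40 (SE 0.14, adjusted p = 0.161 by edgeR). TRAJ58, the detected J segment nearest to the V array, had 1.67% ± 0.24 in the titled CT-26 set and 2.12% ± 0.13 in the titled control set. TRAJ33, the J segment of the MAIT type, had 2.19% ± 0.43 in the titled CT-26 set and 1.78% ± 0.01 in the titled control set.

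TRAJ49 and TRAJ32 were the most used J segments of the titled CT-26 set. TRAJ49 had 4.57% ± 0.79 there and 4.05% ± 0.16 in the titled control set, and TRAJ32 had 4.07% ± 0.66 in the titled CT-26 set and 3.27% ± 0.23 in the titled control set. TRAJ31 and TRAJ40 were the most used of the titled control set. TRAJ31 had 3.84% ± 0.58 in the titled CT-26 set and 4.41% ± 0.14 in the titled control set, and TRAJ40 had 3.97% ± 0.41 in the titled CT-26 set and 4.14% ± 0.20 in the titled control set. TRAJ2, the J segment farthest from the V array, had 0.422% ± 0.200 in the titled CT-26 set and 0.400% ± 0.060 in the titled control set. None of these 5 passed the test.

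V and J segments were not joined evenly along the locus in either set. Located segments were ranked by start, V ranks counting from the segment farthest from the J cluster and J ranks from the segment nearest to the V array. Both arrays were then cut into zones by rank, of 32 V segments each and of 14 proximal, 14 middle and 15 distal J segments. Proximal V segments (TRAV6-6 to TRAV21/DV12) were joined to proximal J segments (TRAJ58 to TRAJ40) in 45.3% ± 3.0 of their titled CT-26 clonotypes and 50.3% ± 0.6 of their titled control clonotypes. Distal V segments (TRAV1 to TRAV14D-3/DV8) were joined to proximal J segments in 31.2% ± 3.7 of titled CT-26 and 28.3% ± 0.9 of titled control clonotypes. The mean J rank of proximal V segments was 17.6 ± 0.7 in the titled CT-26 set and 16.4 ± 0.2 in the titled control set. That of distal V segments was 21.3 ± 0.7 in the titled CT-26 set and 22.0 ± 0.1 in the titled control set.

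The V segments next to the J cluster showed this clearly. Over all libraries, TRAV21/DV12 had a mean J rank of 8.49 and 82.6% of its clonotypes in the proximal J zone. TRAV19 had a mean J rank of 7.20 with 85.1% in that zone, and TRAV17 had 10.04 with 72.7%. TRAV1 and TRAV2, at the other end of the V array, had mean J ranks of 23.7 and 26.6, with 10.6% and 8.27% in the proximal zone. TRAV11 lies within the proximal V zone but had 81.8% of its 280 clonotypes in the distal J zone, where TRAJ18 lies. The ranks come from the reference strain, and the copied parts of the V array differ between mouse strains.

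Spearman's rho between V and J rank, over the clonotypes of a library, was -0.202, -0.249, -0.197 and -0.192 in the titled CT-26 libraries, against -0.276, -0.266, -0.277 and -0.272 in the titled control libraries. Every titled CT-26 library lay nearer to 0. The difference of 0.0630 had the smallest p that the exact permutation test over 70 assignments can give, 0.0286 two-sided, and an adjusted p of 0.075 over the 21 single values tested. With V ranks averaged by subgroup, rho was -0.151 ± 0.037 in the titled CT-26 set and -0.156 ± 0.008 in the titled control set, and the sets overlapped (exact permutation, adjusted p = 0.958). The mean V rank was 61.0 ± 0.3 in the titled CT-26 set and 60.6 ± 0.2 in the titled control set, and the mean J rank was 19.2 ± 0.4 in the titled CT-26 set and 18.8 ± 0.1 in the titled control set, with overlap in both. Clonotypes that joined both proximal zones made up 26.2% ± 1.9 of the titled CT-26 and 27.5% ± 0.6 of the titled control repertoires. Those that joined both distal zones made up 5.22% ± 0.56 of the titled CT-26 and 5.37% ± 0.17 of the titled control repertoires, and the sets overlapped in both shares. Weighted by reads, the share that joined both distal zones was 6.53% ± 0.73 in the titled CT-26 set and 5.54% ± 0.33 in the titled control set, without overlap. The mean J rank by reads was 19.7 ± 0.4 in the titled CT-26 set and 18.9 ± 0.1 in the titled control set, also without overlap (exact permutation, adjusted p = 0.075 for both).

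**Figure D3:**
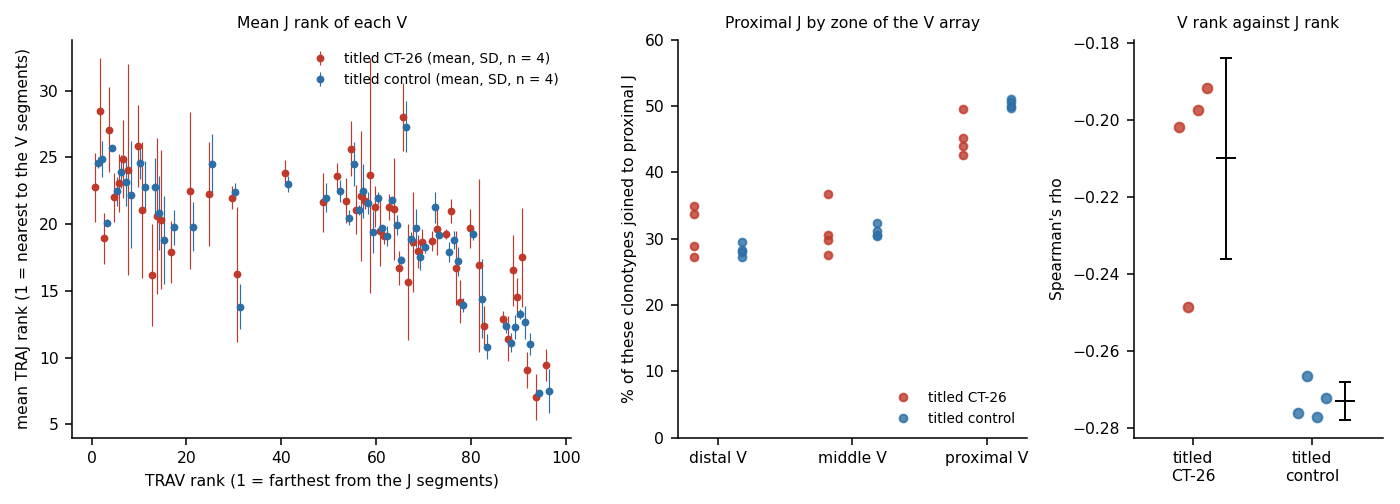
Left, mean TRAJ rank (y axis) of the clonotypes of each TRAV segment with at least 200 clonotypes, by TRAV rank (x axis), mean and SD of 4 libraries a set; middle, percent of the clonotypes of each V zone joined to proximal J segments, 1 point a library; right, Spearman's rho in each library with the mean and SD of each set. The J rank falls towards the V segments nearest to the J cluster in both sets, and rho runs from -0.249 to -0.192 in the titled CT-26 libraries and from -0.277 to -0.266 in the titled control libraries.

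Pairs of V subgroup and J segment were compared next. Of 392 pairs tested with edgeR, 0 passed (0%) and 32 had an unadjusted p under 0.05 (8.16%). For 26 pairs the sets did not overlap (6.63%). DESeq2 called 1, with 39 at an unadjusted p under 0.05. The smallest adjusted p was 0.268 by edgeR, for TRAV3 with TRAJ32, which had 0.549% of titled CT-26 clonotypes and 0.201% of titled control clonotypes, a log2 fold change of 1.45. TRAV12 with TRAJ31, the pair with 1184 clonotypes over all libraries, had 0.899% ± 0.365 in the titled CT-26 set and 0.970% ± 0.058 in the titled control set.

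CDR3 lengths nearly coincided. Counted from the conserved cysteine, the mean length was 13.58 ± 0.01 residues in the titled CT-26 set and 13.57 ± 0.04 in the titled control set (exact permutation, adjusted p = 0.96), and single libraries ranged from 13.53 to 13.62. The difference of 0.00288 residues was below the SD of either set. The most frequent length was 14 residues, with 28.4% ± 1.7 of titled CT-26 and 28.5% ± 0.3 of titled control clonotypes, followed by 13 residues with 25.5% ± 1.4 of titled CT-26 and 25.8% ± 0.7 of titled control clonotypes. Loops under 12 residues made up 6.96% ± 0.92 of titled CT-26 and 6.65% ± 0.34 of titled control clonotypes. Loops over 15 residues made up 8.74% ± 0.92 of titled CT-26 and 8.27% ± 0.73 of titled control clonotypes.

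The residues inside the loop, after removal of 3 at each end, were led by glycine in both sets, with 18.8% ± 0.8 in the titled CT-26 set and 19.1% ± 0.2 in the titled control set. Serine followed with 13.4% ± 0.6 in the titled CT-26 and 13.4% ± 0.2 in the titled control set, and asparagine with 12.5% ± 0.2 in the titled CT-26 and 12.8% ± 0.1 in the titled control set. limma called 5 of 20 residues, or 25%, with 20% higher and 5% lower in the titled CT-26 set. For 7 residues, or 35%, the sets did not overlap. Cysteine, which is rare inside the loop, had 0.260%, 0.326%, 0.428% and 0.344% in the titled CT-26 libraries, against 0.184%, 0.206%, 0.177% and 0.190% in the titled control libraries. All titled CT-26 libraries lay above the titled control ones (log2 fold change 0.82, SE 0.14, limma adjusted p = 0.00710). Isoleucine had 0.898% ± 0.058 in the titled CT-26 set and 0.739% ± 0.036 in the titled control set (limma adjusted p = 0.00710), and histidine 0.906% ± 0.106 in the titled CT-26 set and 0.711% ± 0.013 in the titled control set (limma adjusted p = 0.0182). Valine was higher, with 1.67% in the titled CT-26 and 1.54% in the titled control set, and lysine was lower, with 8.00% in the titled CT-26 and 8.42% in the titled control set (limma adjusted p = 0.0447 for both). The mean hydropathy of these residues on the Kyte-Doolittle scale was -1.43 ± 0.03 in the titled CT-26 set and -1.47 ± 0.0019 in the titled control set, without overlap (exact permutation, adjusted p = 0.075).

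Cysteine was then counted by clonotype size. It was found inside the loop in 3.30% ± 0.61 of the 1-read clonotypes of the titled CT-26 set and 2.11% ± 0.11 of those of the titled control set, without overlap. Among clonotypes of 2 to 4 reads it was found in 0.391% ± 0.606 in the titled CT-26 set, where library 3 had 1.28%, and in 0.236% ± 0.055 in the titled control set, with overlap. Among clonotypes of 5 or more reads it was found in 0.148% ± 0.122 in the titled CT-26 set and 0.155% ± 0.052 in the titled control set, with overlap. When residues were weighted by reads, the log2 fold change of cysteine was -0.0028 and that of isoleucine -0.10, and limma called 0 of 20 residues, with 0 at an unadjusted p under 0.05.

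The joint itself was read by matching each CDR3 to the V end and J end of its segments, taken as the bases that most clonotypes of a segment share, and by counting the bases that matched neither. The mean number of such bases was 10.1, 9.72, 11.3 and 9.98 in the titled CT-26 libraries, against 7.93, 8.39, 7.54 and 7.78 in the titled control libraries. The sets did not overlap, and the exact permutation p was the smallest possible, 0.0286, with an adjusted p of 0.075. Bases matched to the J end averaged 19.996 ± 0.6 in the titled CT-26 set and 22.2 ± 0.3 in the titled control set, without overlap. Bases matched to the V end averaged 10.5 ± 0.2 in the titled CT-26 set and 10.7 ± 0.03 in the titled control set, with overlap. Joints with 0 bases between the ends made up 8.70% ± 0.70 of titled CT-26 and 10.2% ± 0.2 of titled control clonotypes. A single base that differs from the segment end stops the match, so a sequencing error is counted as bases that match neither. With 1 mismatch allowed in each end the means were 4.85 ± 0.33 in the titled CT-26 set and 3.74 ± 0.14 in the titled control set.

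The size of the difference depended on how many reads a clonotype had. In clonotypes of 1 read the mean was 13.2 ± 1.2 bases in the titled CT-26 set and 11.1 ± 0.5 in the titled control set, without overlap. In clonotypes of 2 to 4 reads it was 5.20 ± 0.48 in the titled CT-26 set and 3.19 ± 0.11 in the titled control set, also without overlap. In clonotypes of 5 or more reads it was 2.57 ± 0.06 in the titled CT-26 set and 2.52 ± 0.02 in the titled control set, with overlap. Weighted by reads the direction turned, with 4.26 ± 0.07 in the titled CT-26 set and 4.62 ± 0.05 in the titled control set. Clonotypes 1 base away from a clonotype with at least 5 times their reads made up 20.8% to 27.5% of the titled CT-26 clonotypes and 12.3% to 17.7% of the titled control ones. Joining them left means of 10.1 ± 0.8 in the titled CT-26 set and 7.56 ± 0.33 in the titled control set.

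**Figure D4:**
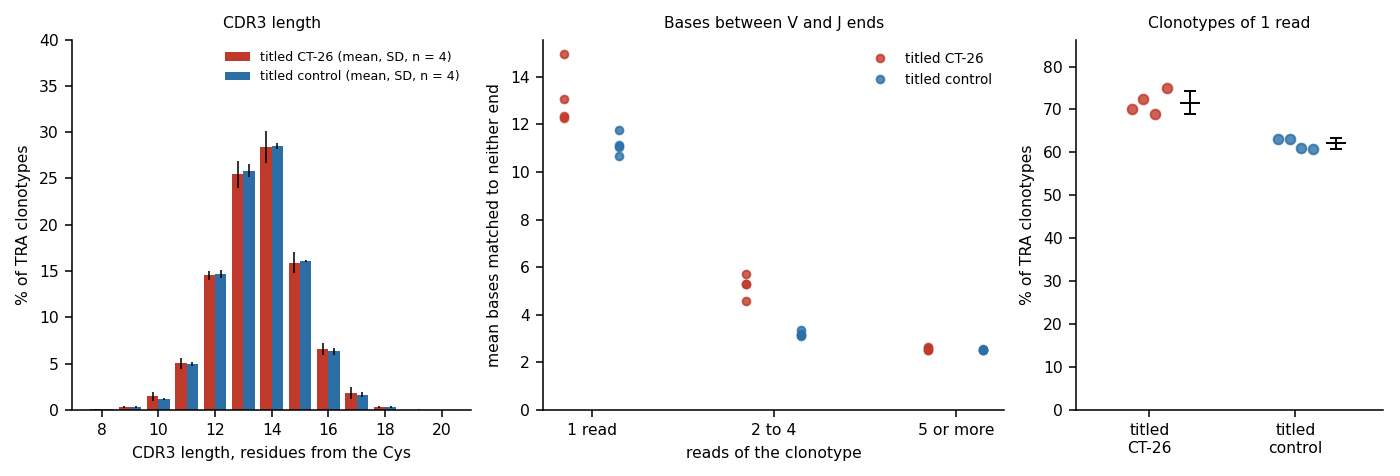
Left, share of TRA clonotypes (y axis, percent) by CDR3 length, mean and SD of 4 libraries a set; middle, mean number of bases that matched neither segment end for clonotypes of 1, of 2 to 4 and of 5 or more reads, 1 point a library; right, percent of clonotypes with 1 read in each library, with the mean and SD of each set. Both length profiles have their mode at 14 residues. The sets separate at 1 read (13.2 bases in the titled CT-26 and 11.1 in the titled control set). They also separate at 2 to 4 reads (5.20 in the titled CT-26 and 3.19 in the titled control set). At 5 or more reads they overlap (2.57 in the titled CT-26 and 2.52 in the titled control set).

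The invariant NKT type took a smaller share of reads in each titled CT-26 library than in any titled control library. It had 52, 19, 14 and 23 reads in the titled CT-26 libraries, or 0.115%, 0.114%, 0.0599% and 0.103% of TRA reads, against 156, 171, 419 and 200 reads, or 0.247%, 0.300%, 0.561% and 0.369%, in the titled control libraries. Titled control library 3 was the highest. The means were 0.0980% ± 0.0259 in the titled CT-26 set and 0.369% ± 0.137 in the titled control set (exact permutation p = 0.0286, adjusted p = 0.075). With the pair of libraries left out they were 0.0963% in the titled CT-26 set and 0.305% in the titled control set. By clonotypes the sets overlapped: the type had 15, 13, 9 and 10 clonotypes, or 0.205% ± 0.072, in the titled CT-26 set and 17, 18, 84 and 36 clonotypes, or 0.148% ± 0.091, in the titled control set.

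The MAIT type was rare in every library. It had 0, 0, 5 and 14 reads in the titled CT-26 libraries and 8, 12, 6 and 3 reads in the titled control libraries. The counts of 0 allow shares of up to 0.00663% and 0.0180% of TRA reads, the other titled CT-26 libraries had 0.0214% and 0.0627%, and the titled control libraries had 0.00553% to 0.0211%. The sets overlapped, and a difference was not detectable at this depth. Its 48 reads fell into 9 nucleotide sequences, and the one printed above held 37 of them in 6 libraries. No molecular identifiers were used here, so reads are not independent molecules, and such limits cover counting error only.

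Reads were spread less evenly over clonotypes in the titled CT-26 set. The 10 largest clonotypes held 1.53%, 3.09%, 2.93% and 2.95% of TRA reads in the titled CT-26 libraries, against 0.714%, 0.878%, 0.878% and 0.947% in the titled control libraries. At an equal depth of 16656 reads, the expected number of clonotypes was 5469.8, 4226, 3743 and 4567 in the titled CT-26 libraries, against 10350, 9786, 11732 and 10459.9 in the titled control libraries. Neither measure overlapped, each with an exact permutation p of 0.0286 and an adjusted p of 0.075. Reads per TRA clonotype were 3.94 to 4.96 in the titled CT-26 set and 2.40 to 2.71 in the titled control set. An equal number of reads is not an equal number of starting molecules. Without molecular identifiers, larger clones and more copies of fewer molecules cannot be told apart. In all, the sets did not overlap for 8 of the 21 single values, or 38.1%, and 0% passed at an adjusted p under 0.05. With 8 values at the smallest p that 4 libraries against 4 allow, the adjusted p could not fall below 0.075.

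The largest clonotype of a library differed between the titled CT-26 libraries and recurred among the titled control libraries. Their CDR3s are shown to compare the joints, and capitals again mark bases that matched neither end.
Titled CT-26 library 1, TRAV12N-2 with TRAJ15: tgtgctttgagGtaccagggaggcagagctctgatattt
Titled CT-26 library 2, TRAV12N-2 with TRAJ13: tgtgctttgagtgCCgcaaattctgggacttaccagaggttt
Titled CT-26 library 3, TRAV12N-2 with TRAJ4: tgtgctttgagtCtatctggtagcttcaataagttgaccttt
Titled CT-26 library 4, TRAV12-1 with TRAJ15: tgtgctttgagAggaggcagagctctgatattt
Titled control libraries 1, 2 and 4, TRAV13-2 with TRAJ39: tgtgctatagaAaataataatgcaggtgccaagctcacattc
The titled CT-26 clonotypes had 95, 64, 82 and 84 reads, or 0.210%, 0.384%, 0.351% and 0.376% of TRA reads. Those of libraries 2 and 3 had 1 read elsewhere, and that of library 1 had 48 reads in others. That of library 4 was found in no other library under the same V name. For these clonotypes a match under another V name was not sought. In titled CT-26 library 2 a second clonotype had the same 64 reads. The TRAV13-2 with TRAJ39 clonotype was the largest in 3 titled control libraries, with 65, 88 and 108 reads, or 0.103%, 0.155% and 0.199%, and was found in 6 libraries. In titled control library 3 the largest clonotype was the first invariant NKT type sequence above, with 121 reads or 0.162%.

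Most clonotypes were private. Of 115309 distinct clonotypes, 94.8% were found in 1 library, 4.13% in 2, and 4 clonotypes in all 8. These 4 were the first 3 invariant NKT type sequences above and 1 of TRAV6-6 with TRAJ57, shown because it was found in every library.
TRAV6-6 with TRAJ57: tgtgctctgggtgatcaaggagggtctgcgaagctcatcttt
This clonotype had 1, 19, 18 and 1 reads in the titled CT-26 libraries and 15, 7, 34 and 2 in the titled control libraries. The mean number of bases that matched neither end was 9.21 for clonotypes of 1 library, 2.09 for those of 2 and 1.12 for those of 3, and 6.33%, 29.1% and 47.6% of them had 0 such bases. This number also fell with the reads of a clonotype, and the part of read number in the values by sharing was not tested. Mean lengths were 13.6, 13.5 and 13.4 residues for clonotypes of 1, 2 and 3 libraries, 13.59, 13.71, 13.95 and 13.67 for the 263, 83, 22 and 3 clonotypes of 4, 5, 6 and 7 libraries, and 14.75 for the 4 of all 8. The share of clonotypes also found in another library was 8.18%, 9.73%, 7.95% and 26.8% in the titled CT-26 libraries, against 10.01%, 10.2%, 12.4% and 10.4% in the titled control libraries. The libraries differ in depth, and this share was not tested between the sets.

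**Figure D5:**
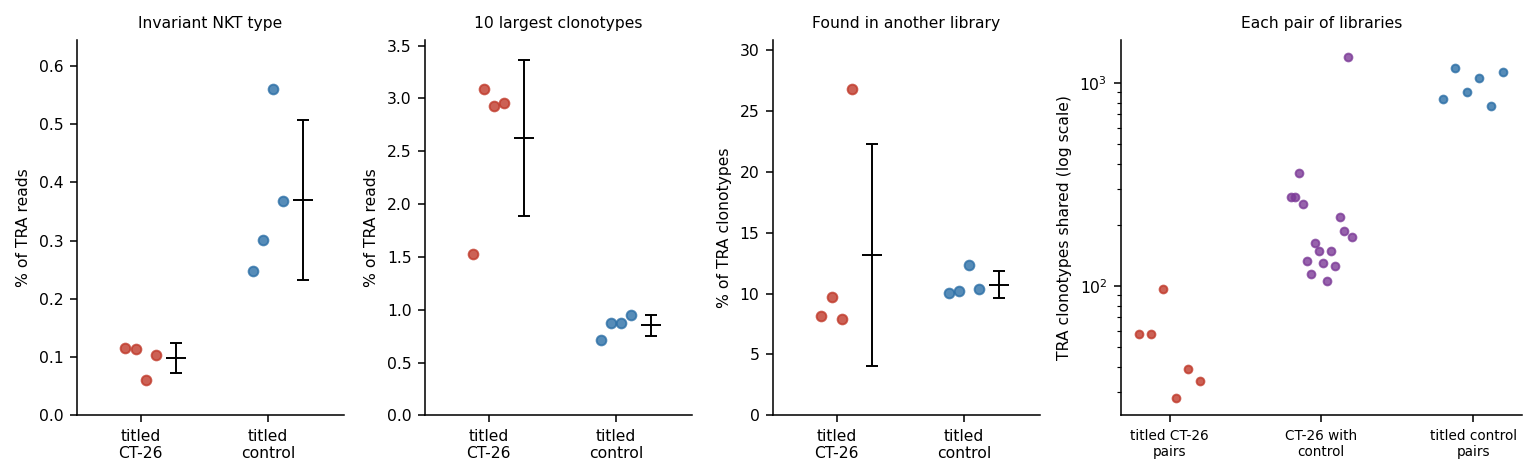
From left, percent of TRA reads of the invariant NKT type, percent of TRA reads in the 10 largest clonotypes, and percent of TRA clonotypes found in another library, 1 point a library with the mean and SD of each set; far right, number of TRA clonotypes shared by each pair of libraries on a log axis. Titled CT-26 library 4 lies apart with 26.8%, and its pair with titled control library 3 lies apart with 1345 shared clonotypes.

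Some CDR3 residue sequences were written by many nucleotide sequences. Of the residue sequences, 11 were found in all 8 libraries, written on average by 10.5 nucleotide sequences, whereas those of 1 library were written by 1.06. For 4 of these, besides the invariant NKT type one, the most-read nucleotide sequence is shown because many nucleotide sequences encode the same residues.
TRAV14-1 with TRAJ22: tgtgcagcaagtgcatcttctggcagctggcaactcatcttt
TRAV4-3 with TRAJ30: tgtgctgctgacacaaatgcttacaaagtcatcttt
TRAV3-3 with TRAJ42: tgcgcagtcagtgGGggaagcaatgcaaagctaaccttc
TRAV13-2 with TRAJ18: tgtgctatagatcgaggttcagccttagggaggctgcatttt
The TRAJ22 residues were written by 18 nucleotide sequences with 12 V segments and 2 J segments. These residues took 0.0963% of titled CT-26 reads and 0.0490% of titled control reads on average. The TRAJ30 residues were written by 15 nucleotide sequences with 21 V segments, and took 0.164% of titled CT-26 and 0.0641% of titled control reads. The TRAJ42 residues were written by 15 nucleotide sequences with 9 V segments, and took 0.0534% of titled CT-26 and 0.0212% of titled control reads. The TRAJ18 residues were written by 13 nucleotide sequences with 6 V segments, and took 0.0310% of titled CT-26 and 0.0844% of titled control reads. All but the TRAJ42 sequence had 0 bases that matched neither end. The numbers of nucleotide sequences are pooled over libraries, so more libraries and more reads give more chances to find another one. A sequencing error that keeps the residues adds to them as well. The part of these in the numbers was not tested. The TRAJ30 residues had more V segments than nucleotide sequences, so some nucleotide sequences carried more than 1 V name. How many of the V names stand for separate rearrangements was not tested.

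The level of alpha chain RNA was read from the RNA-seq libraries of the same titles, which held 735298 to 1152550 counts in the titled CT-26 set and 907109 to 1970950 in the titled control set. Trac, the constant region gene of the alpha chain, had 93.7, 30.9, 38.4 and 54.5 CPM in the titled CT-26 libraries, against 148, 169, 192 and 138 CPM in the titled control libraries. The sets did not overlap, and the log2 fold change was -1.57 (SE 0.27, adjusted p = 2.58e-05 by edgeR). Of 6408 genes tested 42.8% were called, 21.6% as lower in the titled CT-26 set. All 6 genes of the alpha beta T cell list were lower, among them the beta chain constant genes Trbc1 (log2 fold change -2.58) and Trbc2 (-2.33) and the CD3 chains Cd3e (-1.46), Cd3g (-2.56) and Cd3d (-1.08). In bulk samples, fewer T cells and less RNA per cell cannot be told apart. Genes of other cells moved as well. Trdc (-2.32) and Tcrg-C2 (-1.69) of gamma delta T cells were lower, Tcrg-C1 (2.84 CPM in the titled CT-26 and 13.7 in the titled control set) did not pass the filter, and Cd79a (-1.86) and Ms4a1 (-3.93) of B cells were lower. S100a8 (2.11), S100a9 (2.69) and Ngp (3.38) of granulocytes were higher. The part of this composition in the repertoire differences was not tested.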

How the data were processed

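The TCR libraries were made from spleen total RNA with the SMARTer Mouse TCR a/b kit, per the labels' protocols. Their tables were deposited with a read count for each assembled CDR3, and the program that made them is not named by any label or header. The RNA tables were deposited as counts per gene on GENCODE vM29 models, per the file headers. Per the submitters' processing notes, Trimmomatic 0.39 and STAR 2.7.10a were used, and GRCm39 and GRCm38 are named. Coordinates are those of the deposited GRCm39 tables.

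Clonotypes were joined by V, J (allele dropped) and CDR3 nucleotides. The deposited CDR3s mostly start 2 residues before the conserved cysteine, so lengths were counted from that cysteine, and 4793 clonotypes without one were left out of lengths and composition. Joints were read for all but 6203 clonotypes, with segment ends taken where at least 50% of clonotypes agreed. For V, J and pair usage, the numbers of clonotypes (mean of 10 or more) went into edgeR's quasi-likelihood test, with the library's TRA total as offset. Amino acid shares were tested with limma, and 21 single values with two-sided exact permutation over 70 assignments. Adjusted p-values follow Benjamini and Hochberg at 0.05. RNA counts were filtered, scaled with TMM and tested with edgeR. The precision is limited by 16656 to 74707 TRA reads a library. The procedures were tested on simulated data, with joints free of sequencing errors and counts of a fixed dispersion. These simulations therefore do not cover the effect of sequencing errors on the joint values. No library was a copy of another of its set, the chi-square per degree of freedom being 6.79 to 21.6. Pairs across the sets, among them the pair with many shared clonotypes, were not put through this check.

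Segments were named by rule: all with an adjusted p under 0.05, the 2 most used V and J of each set, and the outermost ones. Clonotypes were named as the largest of each library, the invariant ones and those in all 8 libraries. The TRAV12-1, TRAV12N-2 and subgroup values, the other J segments, zones, V segments and pairs, and the J bases were chosen after their values were seen. The members and lists were chosen with earlier results of these data known. Alternatives were another scaling, filter, test and weight, equal depth, each library left out, and 4 added after seeing the data. Out-of-frame entries and other chains were not used here. One gene of the B cell list is not reported here. Tools were edgeR 4.0.16, DESeq2 1.42.0 and limma 3.58.1 in R 4.3.3, and Python 3.11.15 with numpy 2.4.6, pandas 2.3.3, matplotlib 3.10.9 and scipy 1.17.1.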

Additional observations from a re-analysis of the deposited data

Results flagged for a closer look

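Of 134 groups of 4 values examined, each from the libraries of 1 set, 12 held a library far from the other 3. The cut used gives about 1 in 20 by chance for independent values. These groups come from the same libraries and partly measure the same clonotypes, so the number 12 cannot be set against that rate. The pair of libraries with many shared clonotypes gave several of the 12. The share of clonotypes found in another library was 26.8% in titled CT-26 library 4, where the others had 7.95% to 9.73%, and 12.4% in titled control library 3, where the others had 10.01% to 10.4%. The reads in such clonotypes made up 53.5% in titled CT-26 library 4, against 20.02% to 21.3% in the others. Titled control library 3 also stood apart in TRAV21/DV12 (0.831% of clonotypes), TRAJ40 (3.84%) and middle-zone V segments (31.4%). In titled CT-26 library 3, TRAV21/DV12 had 0.276% of clonotypes and CDR3s under 12 residues 8.33%. The 10 largest clonotypes held 1.53% of reads in titled CT-26 library 1, the lowest of its set. Titled control library 1 was high in distal V segments joined to middle J segments (40.1%) and in proximal J segments (41.9%), and titled control library 4 in distal J segments (26.6%).

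Entries outside the productive TRA set also differed. Chains that joined a TRDV segment to a TRAJ segment numbered 6.88 per 100 TRA clonotypes in the titled CT-26 set (5.14 to 8.14) and 2.60 in the titled control set (2.19 to 3.02). Of the entries with TRA segments, 7.82% in the titled CT-26 set (7.20% to 8.89%) and 4.92% in the titled control set (4.59% to 5.39%) were out of frame or held a stop.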

How the results depend on the processing

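Values here are differences titled CT-26 minus titled control, or numbers of calls. TRAV3-3 and TRAV12-3 were called under all 19 alternatives run for them, and all 6 named V segments kept their direction in those 19. Of 6 called V segments (3 higher, 3 lower), 3 were called with TMM scaling, without a filter and with the clonotypes of the pair removed, and 2 with the pair left out, with 0 lower in each. DESeq2 called 1 lower. Reads called 14 (11 lower), clonotypes of 2 or more reads 16 (6 higher, 10 lower), and equal depth or joined neighbours 5 lower. With 1 library left out, 2 to 8 were called, 0 to 5 of them lower. For J segments reads called 3 (1 higher, 2 lower), 2 or more reads 5 (2 higher, 3 lower), equal depth 1 lower and joined neighbours 1 higher. With 1 library left out, 0 to 4 were called (0 to 1 higher, 0 to 3 lower), and 4 without titled CT-26 library 2. For pairs DESeq2 called 1, higher, 2 or more reads 26 (16 higher, 10 lower), joined neighbours 2, both higher, and leave-one-out 0 to 1 in each direction. For residues limma called 0 by reads (0 at an unadjusted p under 0.05) and 0 with 2 or more reads (1 unadjusted), loops of 14 residues 3, and leave-one-out 2 to 5. Joined neighbours gave 7 residues (5 higher, 2 lower) and equal depth 6 (5 higher, 1 lower). Removing the clonotypes of the pair gave 5 (4 higher, 1 lower), and removing 4 residues at each end gave 4, all higher. With the pair of libraries left out, 4 residues (3 higher, 1 lower), 0 J segments and 0 pairs of segments were called.

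Correlations of same-numbered deviations in V usage ran from -0.228 to 0.0614. Libraries of different numbers were not compared in this way, so these values cannot decide whether numbers in the titles pair the libraries. With a replicate block 2 V segments (0 lower), 0 J segments, 0 pairs and 3 residues were called.

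Weight by reads turned round the mean V rank (-0.409), distal with distal (0.996), SD of length (-0.0315), hydropathy (-0.00869), charge (0.0154), bases matched to V (0.300), J (0.143) and neither (-0.358), joints of 0 bases (1.14), and the log2 change of cysteine (-0.00285) and isoleucine (-0.10). Clonotypes of 2 or more reads turned round the V rank (-0.513), distal with distal (0.331), hydropathy (-0.0112), charge (0.00906), bases matched to V (0.0497), joints of 0 bases (0.391) and isoleucine (-0.11). Equal depth gave an SD of length of -0.00390, and 4 residues removed at each end gave charge 0.0148 and lysine 0.21. One mismatch gave bases matched to V 0.0309. Removing the shared clonotypes gave MAIT reads -0.00339 and clonotypes -0.00191. Leaving the pair out gave length -0.0160, its SD -0.00168, loops over 15 residues -0.143, and MAIT reads -0.00596 and clonotypes -0.00801. With 1 library left out, the ranges were -0.311 to 0.0640 for distal with distal, -0.143 to 0.501 for under 12 residues, -0.0114 to 0.0180 for mean length, -0.00469 to 0.0162 for MAIT reads and -0.00664 to 0.00511 for MAIT clonotypes. The cause of these changes was not tested. Trac stayed called under all 12 alternatives (-1.97 to -1.23). The libraries' depth limits rare segments and the MAIT type.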

Other observations

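The reverse kind of mixed chain, a TRAV segment joined to a TRDJ segment, numbered 0.934 to 3.53 per 100 TRA clonotypes in the titled CT-26 libraries and 2.82 to 3.75 in the titled control libraries. Of the 20 largest clonotypes of each library, 7, 10, 7 and 14 were found in another library in the titled CT-26 set and 19, 16, 16 and 17 in the titled control set. The 14 were those of titled CT-26 library 4, of the pair with many shared clonotypes. Within pairs of the titled control set, 35 to 48 of the 100 largest clonotypes of the first library were found in the second. In the other direction 41 to 54 were. Within the titled CT-26 set 1 to 6 were, in either direction. Across the sets, 3 to 14 of the titled CT-26 ones were found in the titled control library, and 6 to 18 in reverse. The pair named above is left out of these, with 57 and 19. Titled CT-26 libraries hold fewer clonotypes in which a match can be found, and these numbers were not tested. Annotated Trav genes had 0 to 2 counts in the titled CT-26 RNA libraries and 1 to 6 in the titled control ones, too few to set beside the repertoires.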
